A study of Mus musculus with 6 samples.

Results

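The proteasome is the protease that degrades most short-lived and damaged cytosolic and nuclear proteins once they carry ubiquitin. Its 20S core is a barrel of alpha and beta rings with the catalytic sites inside, and its 19S regulatory particle binds the ubiquitin chain, removes it, unfolds the substrate with a ring of ATPases and feeds it into the core. Neurons use it at synapses as well as in the cell body, and the transcription factor NRF1 (gene Nfe2l1) raises many subunit genes together when proteasome activity is short.

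The genes described here are all symbols from Psma to Psmg in the deposited tables, 49 of 25896 gene symbols, without the pseudogene Psme2b-ps. For each gene the transcript with the highest mean raw count over all libraries was used, out of 212 proteasome transcripts in the tables. The 49 genes hold 31 subunits of the constitutive 26S particle (14 of the 20S core and 17 of the 19S particle) and 18 others: 4 tissue-specific or inducible catalytic subunits, the testis alpha subunit Psma8, 7 assembly chaperones, 5 activators or inhibitors of the core and Psmc3ip. Constitutive subunits below are these 31, and subunits without a Psm symbol are not among them. Psmc3ip is named after an interaction with a proteasome ATPase and acts in meiotic recombination, so it is a member by its symbol only.

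Polyadenylated RNA was sequenced from whole hippocampus of adult male C57BL/6 mice, 3 months old, with 3 libraries per genotype. All mice were Dicer1 flox/flox and all received tamoxifen (TMX), and they were killed 3 weeks afterwards. WT mice carried no Cre, whereas Dicer1-ifKO mice were transgenic for CaMKIIa-creERT2, a tamoxifen-activated Cre recombinase under a promoter of forebrain excitatory neurons, which removes part of Dicer1, the gene of the enzyme that makes mature microRNAs. The loss of Dicer1 and the presence of the active transgene cannot be told apart in this design. Each library held the pooled RNA of 3 mice per the labels, which makes 9 mice per genotype where the series text gives 12, and the labels call the libraries within a genotype biological replicates. Interneurons, glia and vessels keep Dicer1 and share each library, so fewer cells of a type and less RNA per cell cannot be told apart.

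Counts over the chosen transcripts summed to between 11832789 (WT replicate 1) and 20677846 (Dicer1-ifKO replicate 3) per library, so that 3 counts corresponded to 0.146 to 0.255 CPM (reads relative to the library size after TMM normalization). In edgeR's quasi-likelihood test, adjusted by Benjamini-Hochberg over 17405 genes, 28 genes passed an adjusted p of 0.05, 22 higher and 6 lower in Dicer1-ifKO. Esr1, whose ligand-binding domain is part of the creERT2 fusion, was 1 of them (log2 fold change 1.58, SE 0.15, adjusted p = 7.5e-06). For Dicer1 itself the log2 fold change was 0.04 (SE 0.06, adjusted p = 0.849), and as its counts cover the whole transcript this does not check the deletion. The excitatory markers Slc17a7 and Camk2a, at 881 ± 30.9 and 3330 ± 58.3 CPM in WT (SD, n = 3), fit the labelled tissue.

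Of the 49 proteasome genes, 48 had enough counts to be tested and 0 passed, against 0.161% of all genes tested. Psma8 was left out, with 2, 5 and 8 counts in WT and 6, 3 and 8 in Dicer1-ifKO. The fold changes nevertheless lay mostly on 1 side of zero: 45 of 48 were negative, where 51.0% of all genes were, and their median was -0.09, where the median of all genes was -0.0032. At an unadjusted p below 0.05 the same test held 10 proteasome genes, all with a negative fold change. Over all genes, 4.8% reached that p with a negative fold change and 5.63% with a positive one. In 14 proteasome genes every Dicer1-ifKO library lay below every WT library, against 8.07% of all genes, and in 0 did every Dicer1-ifKO library lie above, against 7.99%. The genes were singled out with earlier results of these data known, so these shares describe the list and are no test of it.

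**Figure D1:**
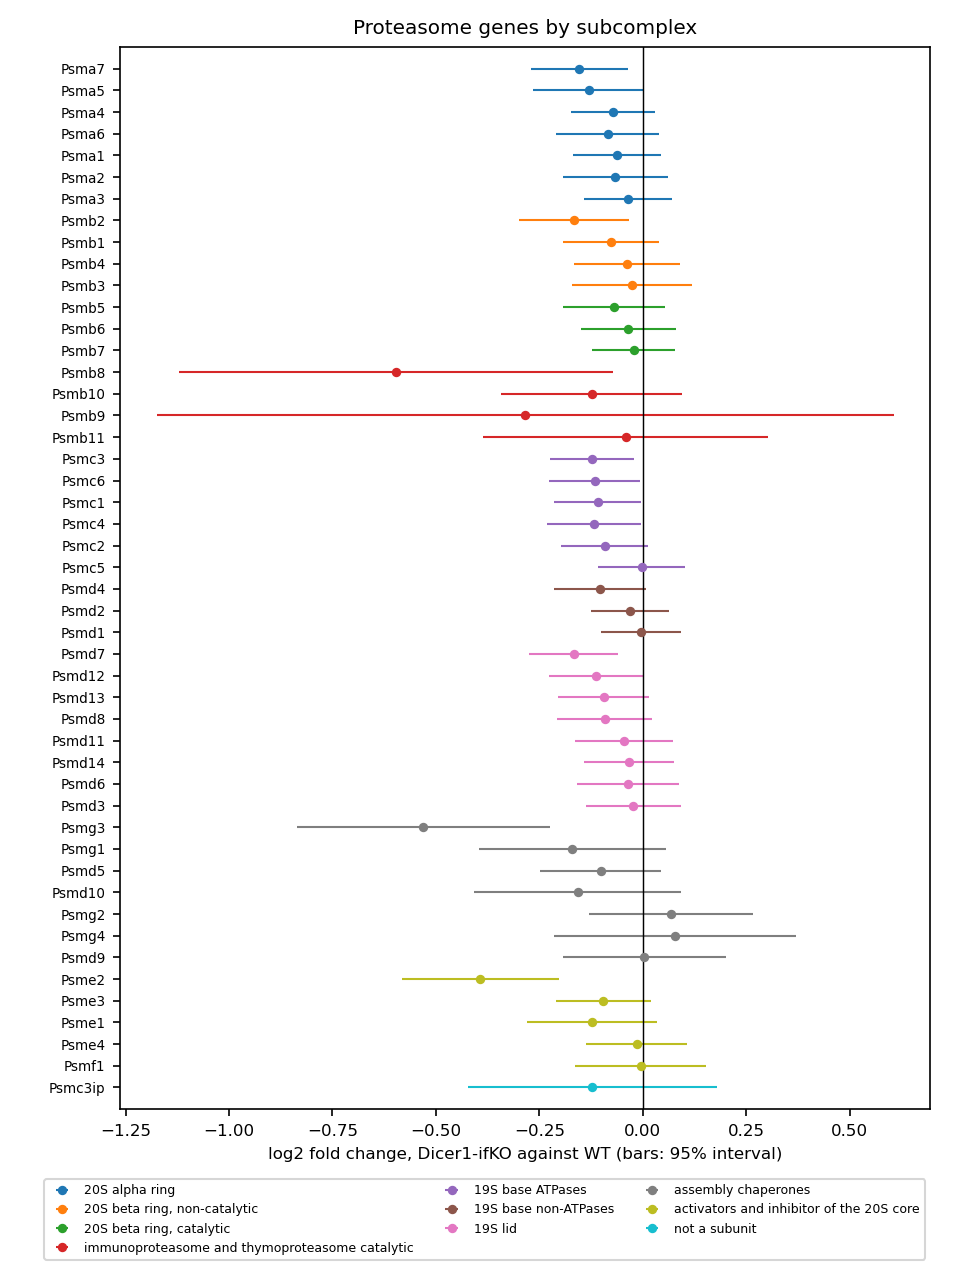
Log2 fold change of Dicer1-ifKO against WT (x axis) for the 48 tested proteasome genes (y axis), grouped and coloured by subcomplex; points are edgeR estimates from 3 libraries per genotype and bars their 95% intervals. Most points lie slightly left of zero, with 45 of 48 negative, and Psme2, Psmg3 and Psmb8 lie farthest left.

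The alpha subunits form the outer rings of the 20S core and gate the entry to its chamber. All 7 constitutive ones had negative fold changes, with a median of -0.07. Psma7 (chr2:180036374-180042433, minus strand) measured 68.1, 63.1 and 67.0 CPM in WT and 62.3, 59.1 and 57.0 CPM in Dicer1-ifKO. Its genotypes did not overlap, although the lowest WT library and the highest Dicer1-ifKO library lay close together. The log2 fold change was -0.15 (SE 0.06, 95% interval -0.27 to -0.04, adjusted p = 0.322). Psma4 was also lower in every Dicer1-ifKO library, with 90.1, 87.4 and 88.3 CPM in WT and 86.55, 82.4 and 83.8 CPM in Dicer1-ifKO, and its log2 fold change was -0.07 (SE 0.05). Psma5 (-0.13), Psma6 (-0.09), Psma1 (-0.06), Psma2 (-0.07) and Psma3 (-0.03) overlapped between the genotypes. Processed pseudogenes nearly identical to Psma5 and Psma4 exist, so reads of these genes may be split.

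The beta rings hold the proteolytic sites. Among the 4 beta subunits without a site, Psmb2 (chr4:126677630-126709714, plus strand) had the lowest p. It measured 66.0, 61.7 and 63.0 CPM in WT and 55.8, 51.5 and 62.1 CPM in Dicer1-ifKO. Dicer1-ifKO replicate 3 lay inside the WT range, so the genotypes overlapped. The log2 fold change of Psmb2 was -0.17 (SE 0.06, adjusted p = 0.347), and Psmb1, Psmb4 and Psmb3 had -0.08, -0.04 and -0.03. Of the constitutive catalytic subunits, Psmb5, the chymotrypsin-like subunit, measured 50.6, 48.0 and 47.6 CPM in WT and 45.9, 44.9 and 48.1 CPM in Dicer1-ifKO (log2 fold change -0.07, SE 0.06). The caspase-like Psmb6 had -0.03 (SE 0.06) and the trypsin-like Psmb7 -0.02 (SE 0.05). All 3 overlapped between the genotypes, with adjusted p between 0.743 and 0.913.

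In the base of the 19S particle, 6 ATPases unfold the substrate. For 4 of the 6 every Dicer1-ifKO library lay below every WT library, against 8.07% of all genes. Psmc3 (chr2:91054055-91066369, plus strand) measured 138.7, 127.6 and 138.9 CPM in WT and 123.8, 122.2 and 125.8 CPM in Dicer1-ifKO. Each Dicer1-ifKO library of Psmc3 lay under the lowest WT library, and the log2 fold change was -0.12 (SE 0.05, adjusted p = 0.365). Psmc6 showed the same order, with 95.7, 87.4 and 86.8 CPM in WT and 82.9, 84.4 and 81.1 CPM in Dicer1-ifKO (-0.12, SE 0.05). Psmc1 measured 100.9, 98.8 and 100.8 CPM in WT against 89.4, 91.0 and 97.9 CPM (-0.11, SE 0.05), and Psmc4 66.7, 63.8 and 64.6 CPM against 57.5, 59.8 and 62.2 CPM (-0.12, SE 0.05). These 4 ATPases reached unadjusted p of 0.0195 to 0.0440 (edgeR, quasi-likelihood), and adjusted p of at least 0.365. Over all genes, 4.8% had an unadjusted p below 0.05 in that test with a negative fold change. The other ATPases overlapped: Psmc2 had -0.09, and Psmc5, at 90.1, 94.1 and 98.8 CPM in WT and 92.8, 93.4 and 96.5 CPM in Dicer1-ifKO, had -0.0029 (SE 0.05). The ATPases assemble into 1 ring with 1 copy of each, so the range from Psmc5 to Psmc3 is a range within a single complex. The test of a difference between members was not made. Exons of Psmc3 share 11.8% of their bases with Slc39a13 on the other strand.

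The scaffold subunits Psmd1 and Psmd2 and the ubiquitin receptor Psmd4 are the other base subunits with a Psm symbol. Psmd4 was lower in every Dicer1-ifKO library, with 72.0, 67.5 and 68.1 CPM in WT and 63.7, 63.4 and 65.8 CPM in Dicer1-ifKO (log2 fold change -0.10, SE 0.05, adjusted p = 0.518). Psmd2 had -0.03 and Psmd1 -0.0043. The lid carries and supports the deubiquitinase and has 8 subunits with a Psm symbol. Among them, Psmd7 (chr8:107580381-107588482, minus strand), the partner of the deubiquitinase Psmd14, had the lowest p of all 31 constitutive subunits. Psmd7 measured 81.8, 77.3 and 76.6 CPM in WT and 69.5, 70.4 and 69.7 CPM in Dicer1-ifKO. The gap between the genotypes was wider than the spread within either. The log2 fold change was -0.17 (SE 0.05, 95% interval -0.27 to -0.06, adjusted p = 0.218), a fitted difference of -10.9%. Psmd14 itself measured 75.2, 78.2 and 83.0 CPM in WT and 76.7, 77.1 and 77.5 CPM in Dicer1-ifKO, with overlap and a log2 fold change of -0.03 (SE 0.05). Psmd12 (-0.11, SE 0.05) and Psmd13 (-0.09, SE 0.05) were lower in every Dicer1-ifKO library, and Psmd8 (-0.09), Psmd11 (-0.05), Psmd6 (-0.04) and Psmd3 (-0.02) overlapped. Exons of Psmd13 share 17.2% of their bases with Sirt3 on the other strand.

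Taking the 31 constitutive subunits together, all had a negative fold change, from -0.17 to -0.0029, with a median of -0.07. For 10 of them the genotypes did not overlap. Their summed level was 2641, 2556 and 2598 CPM in WT and 2439.9, 2457 and 2513 CPM in Dicer1-ifKO. The sums did not overlap between genotypes. The median was -0.07 in the 20S core and -0.09 in the 19S particle, and the count of subunits lower in every Dicer1-ifKO library was 2 of 14 in the core and 8 of 17 in the 19S particle, beside the 8.07% of all genes. The difference between core and 19S particle was not tested. In the plot of the subunits by library, WT replicate 1 stood highest and Dicer1-ifKO replicate 3 lay nearest to WT: the median of log2 CPM around each gene's own mean was 0.09, 0.02 and 0.05 in the WT libraries and -0.06, -0.05 and -0.0067 in the Dicer1-ifKO libraries.

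**Figure D2:**
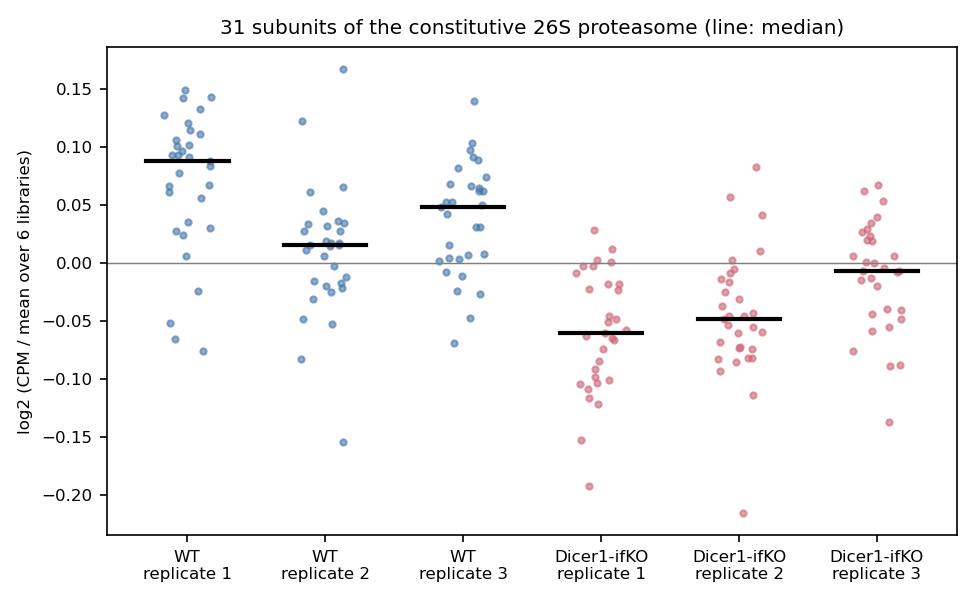
Each point is 1 of the 31 constitutive subunits, plotted as log2 of its CPM over its mean in all 6 libraries (y axis), by library (x axis); black lines are medians. The medians of the 3 WT libraries, 0.02 to 0.09, lie above those of the 3 Dicer1-ifKO libraries, -0.06 to -0.0067, while the points of all libraries overlap.

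Transcript length moved with this shift. The constitutive subunits are encoded by short mRNAs, with a median exon length of 1413.5 bases in the 28 with a matched annotation against 2668 bases over 15026 tested genes, of which 78.6% are longer than that median. Longer genes had higher fold changes (Spearman rho 0.203 across those genes, whose values are not independent of each other). By library, the rho of the deviation from the mean with length was -0.258, 0.07 and -0.118 in WT and 0.112, 0.137 and 0.08 in Dicer1-ifKO. When the edgeR fit carried a length and GC offset per library, the median of the constitutive subunits was -0.04 in place of -0.07, and 23 of the 28 remained negative. With that offset and without WT replicate 1, it was -0.04, with 21 of 28 negative. The 45 tested members with a length had a median of -0.07 (37 negative) and -0.05 (35 negative) under the same settings.

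**Figure D3:**
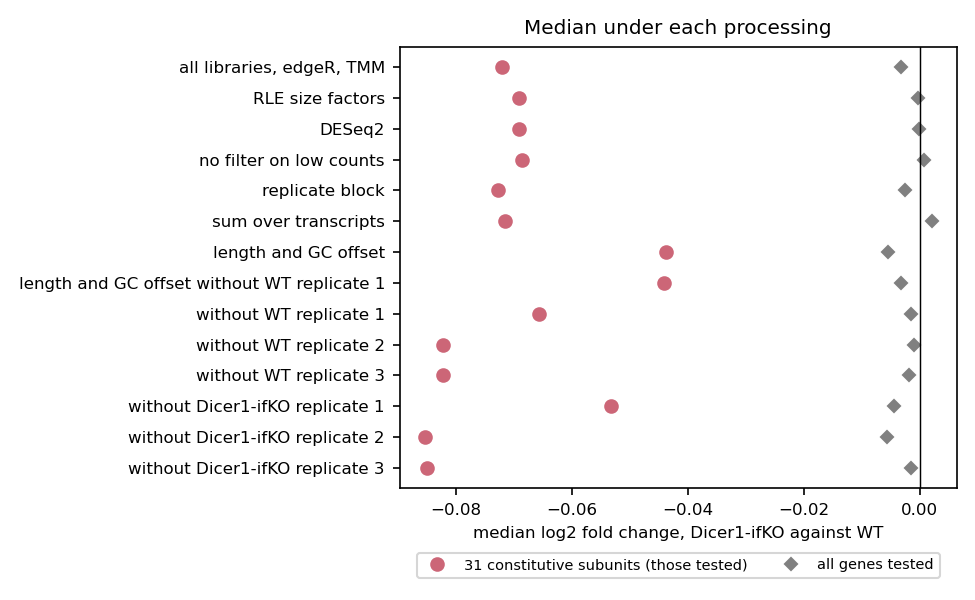
Median log2 fold change of Dicer1-ifKO against WT (x axis) of the constitutive subunits (circles) and of all genes tested (diamonds) under each processing (y axis). The circles lie between -0.09 and -0.04, left of the diamonds in every setting, and closest to zero with the length and GC offset.

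Levels between genes were compared per kilobase of exon, over 46 genes with a matched length (Psma2, Psmb1 and Psmc6 had none). In WT the 28 constitutive subunits had a median of 54.4 CPM per kilobase. They ranged 4.63-fold, from Psmd11 at 22.6 ± 1.37 CPM per kilobase (SD, n = 3) to Psmb7 at 104.8 ± 2.90 CPM per kilobase. The first rank of Psmb7 is uncertain: with the longest transcript of each symbol as its length it stood at 42.7 CPM per kilobase, and Psma4 led with 76.1. In addition, 34.9% of the exon bases of Psmb7 lie in exons of Nek6 on the other strand and the strand setting of the count is not given. The next subunits, Psmb5 at 78.3 ± 2.60, Psma4 at 76.1 ± 1.22, Psmc3 at 74.2 ± 3.56 and Psmb2 at 74.0 ± 2.56 CPM per kilobase, had overlapping ranges of mean ± SD. The last rank of Psmd11 and the 4.63-fold range are uncertain as well. A730017L22Rik shares 97.9% of bases over 52.7% of the Psmd11 transcript, so reads could be split between them. By the longest transcript, Psmd11 stood at 21.7 and Psma2, without a matched length, at 20.8 CPM per kilobase. Assembly chaperones had a median of 10.5 CPM per kilobase and the activators and inhibitor 18.8, led by the nuclear activator Psme3 at 35.1 ± 2.07 CPM per kilobase. The inducible Psmb10 stood at 11.6 ± 1.68 CPM per kilobase, above the chaperone median. Lowest were the other inducible and thymic catalytic subunits, Psmb11 at 1.57 ± 0.423, Psmb8 at 1.22 ± 0.158 and Psmb9 at 0.642 ± 0.519 CPM per kilobase, and Psma8 at 0.192 ± 0.0952 CPM per kilobase.

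**Figure D4:**
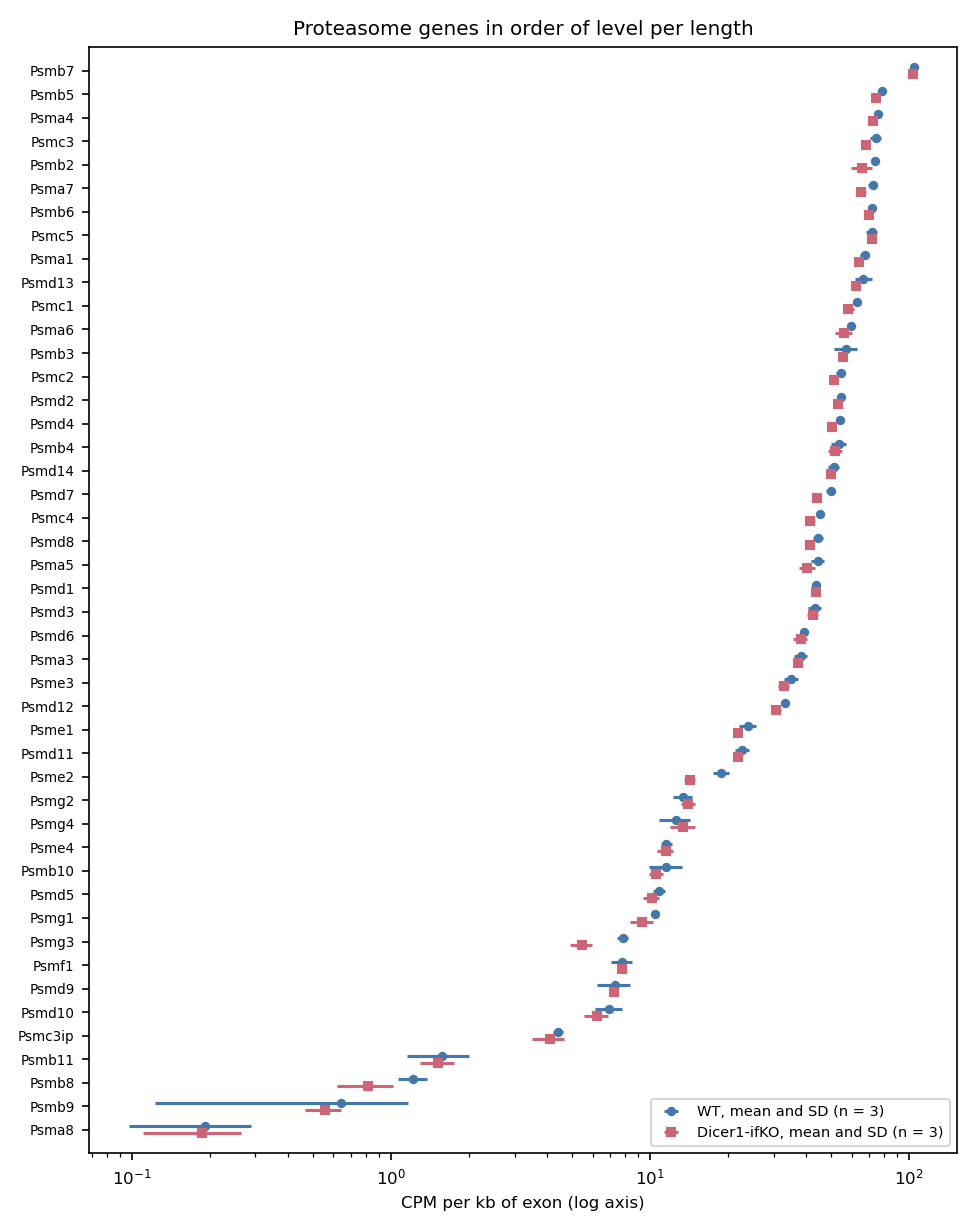
Mean level per kilobase of exon (x axis, CPM per kilobase, log axis) with SD (bars, n = 3) for the 46 proteasome genes with a matched length (y axis), in WT (blue circles) and Dicer1-ifKO (red squares). Constitutive subunits cluster around 54.4 CPM per kilobase, chaperones around 10.5 (medians in WT), and Psmb11, Psmb8, Psmb9 and Psma8 lie lowest.

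Under interferon gamma, immune cells replace the 3 catalytic subunits by Psmb8, Psmb9 and Psmb10, forming the immunoproteasome, which alters the peptides offered to MHC class I. In the hippocampus they were the smaller part of each pair, by an amount that depends on the length used. Per length, Psmb8 made up 1.54% ± 0.235 of the sum of Psmb8 and Psmb5 in WT and 1.09% ± 0.296 in Dicer1-ifKO (SD, n = 3). Psmb9 made up 0.899% ± 0.739 of its pair with Psmb6 in WT and 0.784% ± 0.12 in Dicer1-ifKO. Psmb10 made up 9.92% ± 1.09 of its pair with Psmb7 in WT and 9.30% ± 0.722 in Dicer1-ifKO. With the longest transcript of each symbol as its length, the WT shares were 1.89% for Psmb8, 0.513% for Psmb9 and 21.3% for Psmb10. The shares of Psmb8 in single libraries were 1.33%, 1.48% and 1.79% in WT and 1.07%, 1.40% and 0.808% in Dicer1-ifKO, and they overlapped.

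Psmb8 (chr17:34197790-34201454, plus strand) had the largest negative fold change of the tested members, on few reads. Its counts were 21, 30 and 37 in WT and 20, 30 and 21 in Dicer1-ifKO, which is 1.79, 1.89 and 2.28 CPM against 1.30, 1.67 and 1.03 CPM. All Dicer1-ifKO values lay below all WT values once scaled to library size. This gave a log2 fold change of -0.60 (SE 0.25, 95% interval -1.12 to -0.07). The unadjusted p of Psmb8 in edgeR was 0.0276 and its adjusted p 0.397. Psmb9 was hardly measurable, with 2, 25 and 14 counts in WT and 10, 13 and 18 in Dicer1-ifKO (log2 fold change -0.28, SE 0.43). Exons of Psmb8 share 11.4% of their bases with Gm20496 on the other strand, and those of Psmb9 15.7% with Tap1. Gm20496 had a mean of 23.7 counts. Psmb10 measured 17.1, 12.8 and 15.6 CPM in WT and 14.4, 12.9 and 14.2 CPM in Dicer1-ifKO, with overlap (-0.12, SE 0.11). Psmb11, the catalytic subunit of thymic epithelium, measured 5.23 to 8.69 CPM in WT and 5.78 to 7.57 CPM in Dicer1-ifKO (-0.04, SE 0.17).

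Activators of the core dock on the alpha ring in place of the 19S particle. Psme1 and Psme2 form the interferon-inducible ring activator, Psme3 its nuclear relative, Psme4 a large nuclear activator, and Psmf1 an inhibitor of the core. Psme2 (chr14:55587441-55591087, minus strand) had the lowest p of all proteasome genes. It measured 19.2, 18.5 and 16.6 CPM in WT and 13.0, 14.3 and 13.9 CPM in Dicer1-ifKO. The lowest WT library stood above the highest Dicer1-ifKO library by more than the range of the Dicer1-ifKO libraries. Fitted by edgeR, Psme2 had a log2 fold change of -0.39 (SE 0.09, 95% interval -0.58 to -0.20), or a difference of -23.8%. Its unadjusted p in edgeR was 0.000316 and its adjusted p 0.0994. Without a filter on low counts the same test gave Psme2 an adjusted p of 0.0230 and called it as the only proteasome gene. That setting called 151 of 22441 genes in all, against 28 of 17405 with the filter. The copy Psme2b shares 99.4% of bases over 82.5% of the Psme2 transcript, so reads could be split between them. The copy's own row, Psme2b-ps, measured 3.36 ± 0.487 CPM in WT and 3.20 ± 0.423 CPM in Dicer1-ifKO (log2 fold change -0.05, SE 0.18).

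The partner Psme1, which lies beside Psme2 on chromosome 14, measured 28.4, 24.4 and 26.6 CPM in WT and 24.9, 23.9 and 24.0 CPM in Dicer1-ifKO. Its values overlapped through Dicer1-ifKO replicate 1, and the log2 fold change was -0.12 (SE 0.08, adjusted p = 0.625). Psme3 had -0.10 (SE 0.06), Psme4 -0.01 (SE 0.06) and Psmf1 -0.0052 (SE 0.08), all with overlap. Grouped by their known induction by interferon gamma, Psmb8, Psmb9, Psmb10, Psme1 and Psme2 summed to 66.7, 59.1 and 61.9 CPM in WT and 54.2, 53.4 and 54.0 CPM in Dicer1-ifKO. The sums did not overlap, and Psme2 had the largest difference in CPM of the 5. Psmb8 and Psme2 were lower in every Dicer1-ifKO library, and the other 3 overlapped.

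**Figure D5:**
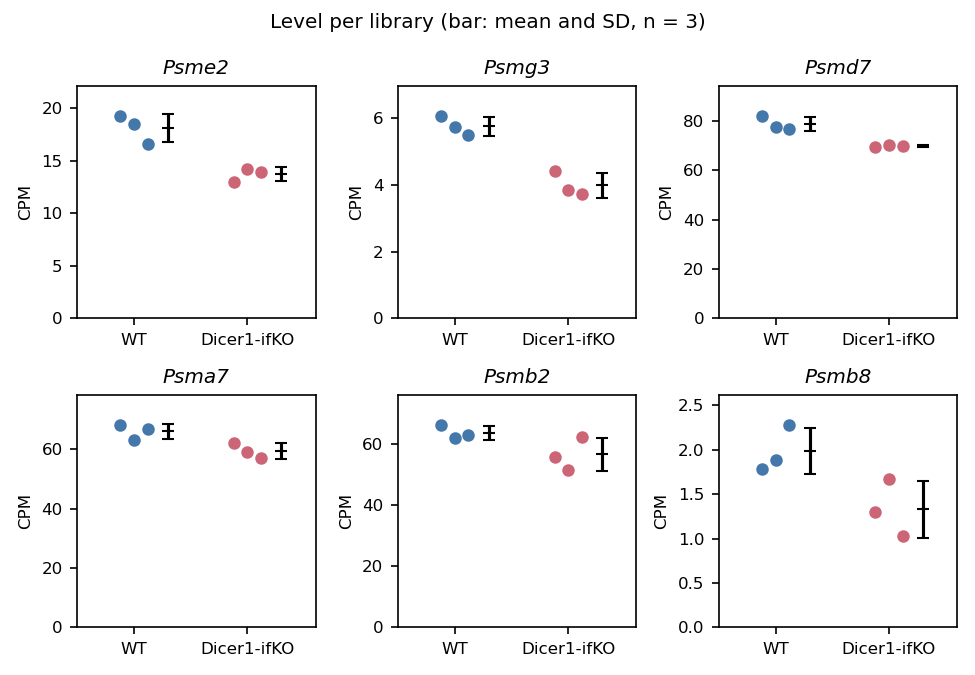
CPM (y axis, from 0) per library in WT and Dicer1-ifKO (x axis) for the 6 proteasome genes with the lowest p other than the 19S ATPases; each point is 1 library, and the bar beside each group its mean and SD (n = 3). The genotypes do not overlap for Psme2, Psmg3, Psmd7, Psma7 and Psmb8, and overlap for Psmb2.

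Genes around the interferon-inducible members were measured beside them. In the MHC class I peptide pathway, 8 of 12 genes were negative with a median of -0.06 and 0 passed the test. The log2 fold change of the peptidase Erap1 was -0.22 (SE 0.11) and the light chain B2m -0.11 (SE 0.07), while the peptide transporter genes Tap1 and Tap2 had 0.10 (SE 0.20) and 0.15 (SE 0.13). Of 12 microglial markers 8 were negative (median -0.11) and 0 passed. At an unadjusted p below 0.05 in edgeR, 2 microglial markers were lower and 1 was higher. The higher one was Itgam, an integrin of microglia, with 0.17 (SE 0.08). Summed, the microglial markers took 515.6 to 558 CPM in WT and 510.4 to 514.5 CPM in Dicer1-ifKO, with all 12 detected. These sums lay close together but did not overlap. The part of microglial markers in the values of the interferon-inducible members was not tested. Summed excitatory markers overlapped between the genotypes, at 5362 to 5505 CPM in WT and 5484 to 5877 CPM in Dicer1-ifKO, with 4 of 9 markers negative. Camk2a, the largest part of that sum, was higher in every Dicer1-ifKO library (log2 fold change 0.11, SE 0.05). Summed astrocyte markers did not overlap, at 3343 to 3521 CPM in WT and 3551 to 3705 CPM in Dicer1-ifKO. Slc1a2, the largest part of that sum, measured 1939 ± 123 CPM in WT and 2131 ± 81.2 CPM in Dicer1-ifKO. Of the 7 astrocyte markers 3 were negative, and the median log2 fold change of all 7 was 0.0075. At an unadjusted p below 0.05 in edgeR, 1 astrocyte marker was lower and 1, Slc1a2, was higher. The part of astrocyte markers in the proteasome values was not tested. The sums of inhibitory neuron, oligodendrocyte, endothelial and blood markers overlapped.

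Assembly chaperones build the particle and leave it when it is complete. Psmg1 with Psmg2 and Psmg3 with Psmg4 form pairs that assemble the alpha ring, and Psmd5, Psmd9 and Psmd10 act on the ATPase ring. Psmg3 (chr5:139823594-139826843, minus strand) measured 6.04, 5.73 and 5.47 CPM in WT and 4.42, 3.83 and 3.71 CPM in Dicer1-ifKO, from 68 to 91 counts per library. Every Dicer1-ifKO library lay below every WT library. The log2 fold change was -0.53 (SE 0.15, 95% interval -0.84 to -0.23, adjusted p = 0.176), a fitted difference of -30.8%. Its partner Psmg4 measured 5.02, 6.42 and 6.46 CPM in WT and 6.04, 7.16 and 5.91 CPM in Dicer1-ifKO, with overlap (0.08, SE 0.14). Exons of Gm26938 on the same strand hold 32.3% of the Psmg3 bases, which strand cannot separate. Psmg1 was lower in every Dicer1-ifKO library, with 10.98, 10.95 and 10.88 CPM in WT and 8.96, 10.8 and 9.33 CPM in Dicer1-ifKO (-0.17, SE 0.11). Psmd10 (-0.16), Psmd5 (-0.10), Psmd9 (0.0034) and Psmg2 (0.07) overlapped, so that Psmg2, Psmg4 and Psmd9 were the 3 members with a positive fold change. Psmc3ip had -0.12 (SE 0.14) with overlap.

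Factors that work with the particle without a Psm symbol were taken from a fixed list of 12, of which 10 were negative (median -0.05) and 0 passed. Pomp, the chaperone that completes the beta ring, measured 58.5 ± 1.21 CPM in WT and 51.2 ± 0.615 CPM in Dicer1-ifKO (log2 fold change -0.19, SE 0.05, adjusted p = 0.18) and did not overlap. Shfm1, a small lid subunit, had -0.12 (SE 0.07), also without overlap. Among 12 genes of the NRF1 pathway that controls subunit transcription, 3 were negative and the median was 0.02. Nfe2l1 itself measured 190 ± 1.66 CPM in WT and 193 ± 9.45 CPM in Dicer1-ifKO (0.03, SE 0.05, adjusted p = 0.884). Vcp, the ATPase that extracts NRF1 and other substrates from membranes, had -0.11 (SE 0.04, adjusted p = 0.371) and was lower in every Dicer1-ifKO library. The 17 genes of ubiquitin supply, activation and shuttling were split, with 9 negative and a median of -0.0074. The neuronal ubiquitin hydrolase Uchl1 had -0.15 (SE 0.04, adjusted p = 0.195) and the ligase Ube3a 0.22 (SE 0.07, adjusted p = 0.218).

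Promoter sequences, 250 bases before to 50 after a start site, were available from RefSeq (GRCm38.p6) for 41 proteasome genes and 11327 tested genes. The letters CCGGAAG, the core of sites for ETS factors, were found on either strand in 15 of the 41 (36.6%) against 16.7% of all genes. TGACNNNGC, the core of the antioxidant response element that NRF1 also uses, was found in 6 (14.6%) against 16.7%. GAAANNGAA, the core of the interferon-stimulated response element, was found in 7 (17.1%) against 8.85%, and CCAAT in 15 (36.6%) against 42.7%. Among the proteasome genes the median log2 fold change was -0.10 with CCGGAAG and -0.07 without. The same medians over all genes were not taken, and a link of the match to the fold change was not tested. The windows below are shown for the 7 of the 15 genes with this match that were lower in every Dicer1-ifKO library. That order held in 14 of the 48 tested proteasome genes and in 8.07% of all genes. The other genes with the match overlapped between the genotypes. The set shown was chosen for lower values and shows no direction of its own. Windows run 5′ to 3′ in the direction of the match, with CCGGAAG in capitals.
Psmc1, chr12:100110164-100110190, minus strand: atcgccaccgCCGGAAGtgcatccacc
Psmc6, chr14:45329714-45329740, plus strand: ggcgggccagCCGGAAGgggcggagcc
Psmd4, chr3:95042723-95042749, minus strand: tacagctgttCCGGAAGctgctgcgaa
Psmd12, chr11:107479501-107479527, minus strand: gtcactcgcaCCGGAAGtcgcccgctc
Psmd13, chr7:140882378-140882404, plus strand: gcccgcggtgCCGGAAGtgagcgagca
Psmg1, chr16:95991013-95991039, minus strand: tcgcggcggaCCGGAAGctcttaggtt
Psmg3, chr5:139826874-139826900, minus strand: cggacaggaaCCGGAAGttctcgccgg

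A match to these letters is a description and does not show that a factor binds. The antioxidant response core was found in Psmb5, Psmb6, Psmd9 and Psme4, which overlapped between the genotypes, and in Psmc6 and Psmd12, which did not. The catalytic Psmb5 and Psmb6 and the ATPase Psmc6 are shown with the 9 bases of TGACNNNGC in capitals.
Psmb5, chr14:54618024-54618052, minus strand: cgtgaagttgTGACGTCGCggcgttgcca
Psmb6, chr11:70525338-70525366, plus strand: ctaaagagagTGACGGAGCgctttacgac
Psmc6, chr14:45329587-45329615, minus strand: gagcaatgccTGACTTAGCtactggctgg

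Psme2 and Psmg3, the members with the lowest p, are shown with a whole promoter each. That of Psme2 holds none of the 4 motifs at either of its annotated starts, and that of Psmg3 holds the single CCGGAAG match in capitals.
Psme2, chr14:55591052-55591351, minus strand: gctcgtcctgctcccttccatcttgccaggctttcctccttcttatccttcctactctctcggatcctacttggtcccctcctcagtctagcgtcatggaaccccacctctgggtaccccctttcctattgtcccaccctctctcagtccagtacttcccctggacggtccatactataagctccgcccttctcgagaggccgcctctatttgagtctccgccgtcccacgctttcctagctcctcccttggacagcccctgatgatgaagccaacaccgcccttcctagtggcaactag
Psmg3, chr5:139826845-139827144, minus strand: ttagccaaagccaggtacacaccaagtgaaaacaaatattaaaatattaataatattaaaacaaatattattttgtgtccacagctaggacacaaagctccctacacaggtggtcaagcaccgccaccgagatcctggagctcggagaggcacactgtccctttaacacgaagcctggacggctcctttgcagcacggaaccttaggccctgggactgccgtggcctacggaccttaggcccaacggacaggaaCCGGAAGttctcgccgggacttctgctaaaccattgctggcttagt

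As the deleted enzyme makes microRNAs, the 3′ UTRs were searched for sites of abundant brain microRNAs. A site was the 7 bases that pair with the seed, bases 2 to 8 of the microRNA. The 11 microRNAs, with sequences from RefSeq, have 10 seeds, since let-7a and let-7c share 1. The neuronal miR-124 was not analysed here, so the counts of sites do not cover it. Those below had no match in any proteasome gene (let-7a, let-7c and miR-26a) or a match in a gene whose genotypes did not overlap (miR-30a, miR-125b, miR-128 and miR-132), with the seed in capitals.
mmu-let-7a-5p: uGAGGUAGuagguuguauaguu
mmu-let-7c-5p: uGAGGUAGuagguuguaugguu
mmu-miR-26a-5p: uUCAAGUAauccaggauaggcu
mmu-miR-30a-5p: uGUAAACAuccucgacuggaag
mmu-miR-125b-5p: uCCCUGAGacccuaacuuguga
mmu-miR-128-3p: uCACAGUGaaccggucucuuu
mmu-miR-132-3p: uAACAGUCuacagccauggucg

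Proteasome 3′ UTRs were short, with a median of 213 bases in 43 genes against 1012 bases in 12487 tested genes. Correspondingly few held a site: 15 of 43 (34.9%) against 62.8% of all genes. The median log2 fold change was -0.05 in members with a site and -0.09 in the 28 without, and over all genes these medians were 0.0067 with a site and -0.02 without. Psmf1 matched most seeds, those of miR-9, miR-125b, miR-138 and miR-181a, and its log2 fold change was -0.0052. The sites in genes whose genotypes did not overlap are printed as 29 bases of the 3′ UTR (GRCm38, GENCODE annotation) with the paired bases in capitals.
Psmb8, miR-30a, chr17:34201372-34201400, plus strand: agacaaagctcTGTTTACcctctcggccc
Psmd7, miR-30a, chr8:107580402-107580430, minus strand: aggccatgtatTGTTTACcttcaaagata
Psmg3, miR-125b, chr5:139823770-139823798, minus strand: agcactcaagtCTCAGGGactctccctgc
Psmc1, miR-125b, chr12:100123197-100123225, plus strand: ccacagtcgtcCTCAGGGatggggagctg
Psmc1, miR-128, chr12:100123274-100123302, plus strand: atcgtggaggaCACTGTGcctccatctgt
Psmc3, miR-132, chr2:91066264-91066292, plus strand: cattgtggactGACTGTTattggttaaga

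All of these genes had a negative log2 fold change in Dicer1-ifKO, from -0.60 in Psmb8 to -0.11 in Psmc1, as had Psme3 (-0.10), the other gene with a miR-30a site. The set was chosen for lower values and shows no direction of its own.

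Tested transcript by transcript, 207 proteasome transcripts passed the filter, 176 of them with a negative fold change and a median of -0.10. The lowest adjusted p among them was 0.131 (edgeR), in a transcript of Psme2, so 0 passed, where 47 of 60500 transcripts did. DESeq2 gave an adjusted p to 25 of the 48 tested proteasome genes only, because its independent filtering set the others aside. With its p adjusted over all 17405 genes without that filtering, it called 28 genes and 0 of the 48, the lowest adjusted p being 0.157 for Psme2.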

How the data were processed

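The authors deposited 1 table per library with 76938 transcripts, their coordinates (GRCm38), a raw count and a normalised value, per the file headers. Raw counts in the deposited tables are whole numbers of reads for a transcript. The deposited normalised signal is that count over a library factor (0.720 to 1.28) and was not tested. The submitters' processing notes name CASAVA 1.8.2, SAMtools 0.1.18, TopHat2 2.0.6, Bowtie2 2.0.5 and DESeq2, and the labels' protocols a stranded kit. Read counter, annotation release and strand setting were not given in the sources used here. Transcripts that share exons share reads, so 1 transcript per symbol was used (22441 of 25896 symbols had a count).

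The 3 libraries of each genotype were compared in edgeR 4.0.16 (R 4.3.3) by the quasi-likelihood F-test, with TMM, filterByExpr at a minimum count of 10, a prior count of 0.125 and no covariate, adjusted by Benjamini-Hochberg over 17405 genes at a threshold of 0.05. The F statistic and the fold change gave the SE. GENCODE release M21 gave lengths (transcript ends within 100 bases), copies (at least 95% identity over at least 50% of the transcript) and 3′ UTRs of at least 50 bases. The length and GC offset used mgcv 1.9.3, and DESeq2 1.42.0 was an alternative. On simulated data for this comparison (5 sets, 200 of 17405 genes changed), the test recovered 51.6% of 1.25-fold changes, 80.4% of 1.5-fold, 94% of 2-fold and 100% of 4-fold changes. Named genes were members at an adjusted p below 0.05, up to 4 with the lowest p per subcomplex, the highest and lowest level per length in each, the catalytic pairs, up to 2 per context list, and Dicer1, Esr1 and Nfe2l1. The value of 1 marker gene under this rule is not reported here. Other members are given by fold change, and Psmd14, Psmg4, Slc17a7, Tap1, Tap2 and Psme2b-ps were added after their values were seen. The members and lists were chosen with earlier results of these data known.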

Additional observations from a re-analysis of the deposited data

How the results depend on the processing

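Proteasome genes called numbered 0 under each setting run except the fit without a filter on low counts, which called 1, Psme2 (log2 fold change -0.39, adjusted p = 0.0230). Over all genes 28 were called, against 80 with DESeq2, 151 without the filter, 7 with counts summed over transcripts and 6 to 105 when 1 library was left out (6 without Dicer1-ifKO replicate 1, 105 without WT replicate 2, 14 without WT replicate 3, and 18 without WT replicate 1 or Dicer1-ifKO replicate 2). DESeq2 gave 23 of the 48 members no adjusted p, among them Psme2, Psmg3, Psmb8 and the abundant Psma5, Psma6 and Psmb2. Adjusted over all genes without its independent filtering, it called 28 genes and 0 members (6 members at an unadjusted p below 0.05). The replicate block gave 22 calls, 0 of them proteasome genes, and a median of -0.09 over the members. Same-numbered libraries did not deviate together (r = -0.07, 0.03 and -0.09), so the numbers were not taken as pairs. The median over all tested members was negative under every setting run (-0.095 to -0.053), with 35 to 45 members negative.

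The length and GC offset moved the median to -0.029 in the 20S core and -0.043 in the alpha ring. With that offset and without WT replicate 1 it was -0.053 over all members, -0.050 in the 19S particle, -0.050 in the alpha ring, 0.036 in the non-catalytic beta subunits, -0.37 in the inducible and thymic catalytic subunits and -0.041 in the lid. Leaving out 1 library gave -0.37 (without WT replicate 1) to -0.012 (without WT replicate 2) in the inducible and thymic catalytic subunits and -0.10 to -0.059 in the lid. With the longest transcript of each symbol as its length, the constitutive subunits had a median of 47.0 CPM per kilobase, and the shares were 1.89% for Psmb8, 0.513% for Psmb9 and 21.3% for Psmb10.

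Of 503 values of 39 named genes under the alternatives, 28 turned positive. With the length and GC offset these were Psmb3 (2.0e-05), Psmb7 (0.0090) and Psmd1 (0.0012), and with the offset and without WT replicate 1 Psmb4 (0.036), Psmb3 (0.045), Psmb6 (4.9e-05), Psmb7 (0.030), Psmd1 (0.0078), Psmd11 (0.0056) and Psmf1 (0.0072). The sum over transcripts turned Psmd1 (0.0078). Leaving out 1 library gave -0.075 to 0.0034 for Psma3, -0.085 to 0.014 for Psmb4, -0.11 to 0.030 for Psmb3, -0.041 to 0.0073 for Psmb7, -0.67 to 0.42 for Psmb9, -0.21 to 0.21 for Psmb11, -0.026 to 0.017 for Psmd1, -0.071 to 0.034 for Psme4 and -0.082 to 0.062 for Psmf1. The cause was not tested. The test of all transcripts and DESeq2 without independent filtering were added after seeing the data. Changes as small as those of most subunits were not simulated, and Psmb8 and Psmb9 are limited by their few reads.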
